A study of Cyanidioschyzon merolae strain 10D with 12 samples.

Results

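Cultures of the red alga Cyanidioschyzon merolae that had spent 3 h at low CO2 were compared with cultures of the same strain that had been returned to high CO2 and given 24 h to recover. C. merolae is a single-celled alga of hot, acidic springs with 1 plastid and a small, gene-dense nuclear genome. All libraries came from wild-type strain 10D, grown in batch under constant light and bubbled with gas containing either 5% CO2 (high CO2, HC) or 0.04% CO2, the level of ambient air (low CO2, LC). The LC 3 h cultures had been grown at 5% CO2 and then held at 0.04% CO2 for 3 h. The HC 24 h recovery cultures had been through the same growth at 5% CO2, then 24 h at 0.04% CO2, and then 24 h at 5% CO2 again. Both groups therefore shared a first period at high CO2 and a move to low CO2. The recovery group differed in a longer time at low CO2, in the return to high CO2 and in total time in culture, and these cannot be told apart. No culture was kept at 5% CO2 throughout. The comparison used the 6 libraries of these groups out of 12 in the series, 3 biological replicates in each, and the counts of all 4970 genes. The series also holds 3 libraries taken before the shift (HC 0 h), which had no part in the main test.

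CO2 is scarce in acidic water, and Rubisco, the enzyme that fixes it, also reacts with oxygen. The oxygen reaction makes 2-phosphoglycolate, a toxic product that the photorespiratory pathway turns back into a usable sugar phosphate through steps in the plastid, peroxisome and mitochondrion, releasing ammonia and CO2 on the way. Algae at low CO2 also raise carbonic anhydrases, which interconvert CO2 and bicarbonate, and transporters that carry inorganic carbon. Genes are called here by their locus names, with the function of the best Arabidopsis match that the deposited table lists. Such a match is a similarity and not a measured activity, and several matches were weak. Among the genes named below, the E-value was 0.02 for CMH127C, 0.011 for CMN252C and 3e-06 for CMC133C. That of the carbonic anhydrase CMT416C was 2e-08, and that of CML339C 6e-12.

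The estimated counts summed to between 9887991 and 12063877 per library at LC 3 h and to between 24296458 and 28346661 in recovery, so depth differed with the group. With all libraries thinned to the same depth, 789 genes were called higher and 650 lower, against 790 and 670 at full depth. Replicate 1 stood apart from replicates 2 and 3 in both groups. Across genes it correlated with them at r = 0.971 to 0.975 within the LC 3 h group, where replicates 2 and 3 correlated at 0.991, and at 0.982 to 0.985 within recovery, where those replicates correlated at 0.997. The spread between replicates, as the biological coefficient of variation, was 15.8% at LC 3 h and 12.6% in recovery. Without replicate 1 it was 7.4% at LC 3 h and 4.8% in recovery. Replicate 1 deviated alike in both groups, while replicates 2 and 3 were not shown to pair by number. The main test has no block, and a fit with the replicate number as a block is given beside a result wherever it changed it. The genes without a listed length took 1.366% to 6.461% of counts at LC 3 h and 0.501% to 0.827% in recovery, and the plastid genome 0.612% to 0.812% at LC 3 h and 0.549% to 0.644% in recovery. These shares are taken up beside the organelle results.

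Values are counts scaled to each library's total multiplied by its TMM scaling factor (CPM), so their sum differs between libraries. These factors were 0.913 to 0.985 at LC 3 h and 1.029 to 1.08 in recovery. Changes are log2 ratios of LC 3 h over recovery with their standard error. A gene was called where edgeR's quasi-likelihood test gave an adjusted p under 0.05 (Benjamini-Hochberg over all 4862 genes that passed the filter on low counts). Of these, 790 genes (16.2%) were higher at LC 3 h than in recovery and 670 genes (13.8%) were lower, in all 30.0%. The large changes ran mostly upward: 280 genes (5.76%) were at least 2-fold higher and 66 genes (1.36%) at least 2-fold lower. All 3 LC 3 h libraries lay above all 3 recovery libraries for 1101 genes (22.6%) and below them for 1216 genes (25.0%). With the replicate block the calls were 1105 higher and 1198 lower (22.7% and 24.6%), and without replicate 1 of both groups 1537 higher and 1508 lower (31.6% and 31.0%). Every list count below is to be read beside these shares of all tested genes. They are 16.2% and 13.8% in the main test and 22.7% and 24.6% with the block. Of the 1460 genes called, 1459 were also called with the block and 1441 without replicate 1. Another scaling moved the balance of directions: upper-quartile scaling gave 680 higher and 951 lower calls, 41.7% higher against 54.1% here, and shifted the median change of all genes to -0.10, against -0.04 for the scaling used here. Leaving out recovery replicate 2 lowered the calls most, to 438 higher and 224 lower, and leaving out LC 3 h replicate 1 gave the most, 1075 higher and 897 lower.

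**Figure D1:**
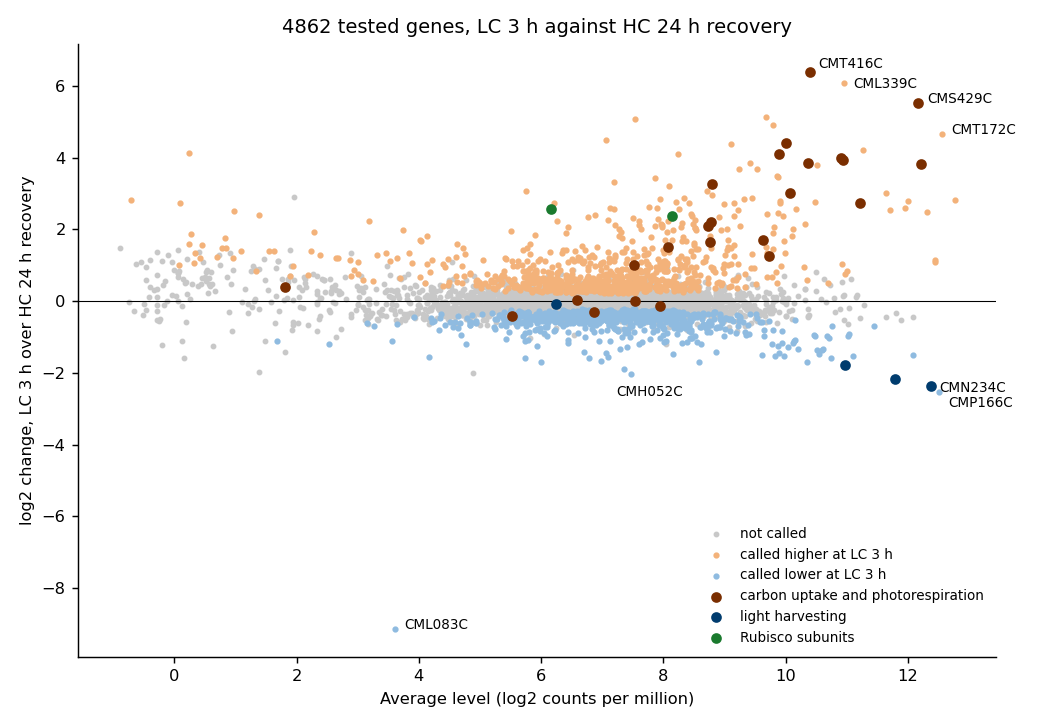
Each point is a tested gene, with its average level (log2 CPM) on the x axis and its log2 change, LC 3 h over HC 24 h recovery, on the y axis; pale points are genes called higher or lower, and dark points mark carbon uptake, photorespiration, light harvesting and Rubisco genes. Most photorespiration genes lie between 1.50 and 5.53 at moderate to high levels, while the light-harvesting genes CMN234C and CMQ142C, with CMP166C, lie at the lower right.

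Inorganic carbon uptake held the largest rise of any gene. CMT416C, matched to an alpha carbonic anhydrase, had 2221, 2926 and 2824 CPM at LC 3 h, against 30.0, 35.0 and 30.0 CPM in recovery. The groups were far apart, with an 83.9-fold difference (log2 change 6.39 ± 0.20, edgeR adjusted p = 2.2e-05). A further alpha carbonic anhydrase, CMI270C, had 1264, 1237 and 1071 CPM at LC 3 h, against 664, 444 and 392 CPM in recovery. Its groups did not overlap and it was 2.38-fold higher (log2 change 1.25 ± 0.22, edgeR adjusted p = 0.00696). Among the anion exchangers, a transporter family that can carry bicarbonate in animals and borate in plants, CMT006C had 533, 842 and 794 CPM at LC 3 h and 176, 156 and 141 CPM in recovery, a 4.59-fold rise. CMI004C, which has the same best match, had 508, 804 and 759 CPM at LC 3 h and 170, 159 and 152 CPM in recovery, a 4.31-fold rise. The near-equal values leave it uncertain how reads were shared between these copies. CMR009C, also an anion exchanger, rose by 1.02 ± 0.20 on the log2 scale (edgeR adjusted p = 0.0107). The gamma carbonic anhydrase matches CMM052C and CMD023C, a type that in plants belongs to mitochondrial complex I, gave log2 changes of 0.00 ± 0.11 and 0.03 ± 0.09, with overlapping groups. In all, 5 of 7 members were called higher and 0 lower, against 16.2% and 13.8% of all tested genes, with a median change of 1.25. No member of this list, nor of the Calvin-Benson list, was lower by DESeq2 or at an unadjusted p under 0.05.

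**Figure D2:**
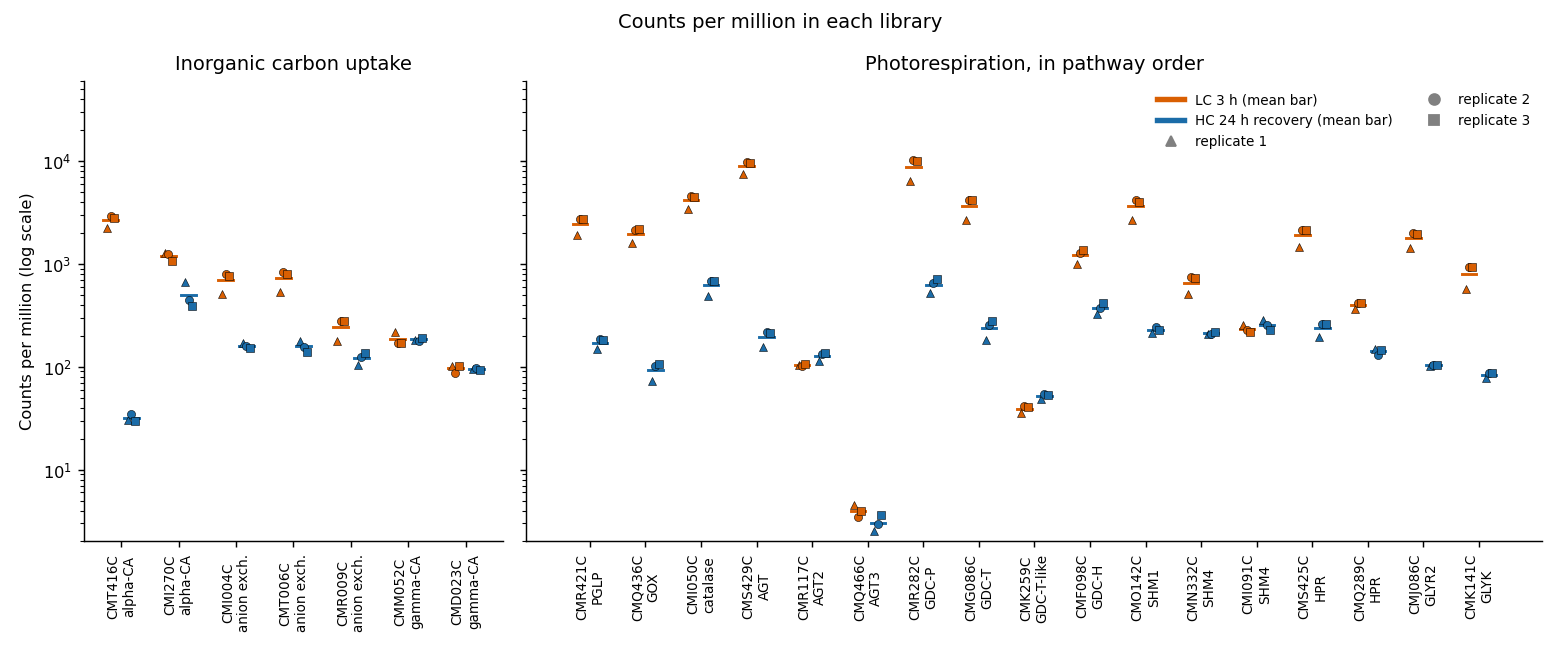
CPM in each library (log axis) of all 7 carbon uptake genes and all 17 photorespiration genes, with LC 3 h left of HC 24 h recovery for each gene; bars are means, and triangles, circles and squares are replicates 1, 2 and 3. The LC 3 h points of CMT416C (2221 to 2926 CPM) lie farthest above their recovery points (30.0 to 35.0 CPM), and replicate 1 is the lowest LC 3 h library for most photorespiration genes.

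Each step of the photorespiratory pathway described here had at least 1 gene called higher. Of 17 members, 13 were called higher (76.5%), each by 2.84-fold or more, and 1 was called lower (5.9%), with a median log2 change of 3.01. The shares of all tested genes were 16.2% and 13.8%. With the block, or without replicate 1, the counts were 13 higher and 2 lower. The first enzyme, the phosphoglycolate phosphatase CMR421C, had 1907, 2740 and 2746 CPM at LC 3 h, against 148, 185 and 180 CPM in recovery, a 14.4-fold rise (log2 change 3.85 ± 0.21, edgeR adjusted p = 0.000108). Its product passes to the peroxisome, where glycolate oxidase makes glyoxylate and hydrogen peroxide. The oxidase CMQ436C had 1583, 2142 and 2195 CPM at LC 3 h and 72.5, 101 and 107 CPM in recovery, a 21.1-fold rise. Catalase CMI050C, which breaks down that peroxide, had 3408, 4571 and 4461 CPM at LC 3 h and 485, 677 and 688 CPM in recovery. That was a 6.72-fold rise, and its recovery level was above that of HC 0 h by 0.80 ± 0.19 on the log2 scale (edgeR adjusted p = 0.0206).

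The transamination of glyoxylate to glycine showed how unevenly related genes moved. CMS429C, matched to alanine:glyoxylate aminotransferase AGT1, had 7547, 9892 and 9660 CPM at LC 3 h, against 157, 215 and 215 CPM in recovery, a 46.1-fold rise (log2 change 5.53 ± 0.27, edgeR adjusted p = 7.8e-05). Its relatives stayed near their recovery levels. CMR117C, matched to AGT2, had 104, 102 and 107 CPM at LC 3 h and 113, 134 and 137 CPM in recovery (log2 change -0.29 ± 0.09, edgeR adjusted p = 0.0501), and was called lower with the replicate block (adjusted p = 0.0246). CMQ466C, matched to AGT3, stayed under 5 CPM in every library (log2 change 0.39 ± 0.23).

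Glycine is next split by the mitochondrial glycine decarboxylase complex, and the serine hydroxymethyltransferase beside it makes serine. The P-protein of the complex, CMR282C, had 6345, 10290 and 9924 CPM at LC 3 h and 517, 656 and 718 CPM in recovery, a log2 change of 3.81 ± 0.29. The T-protein match CMG086C, an aminomethyltransferase, rose 15.3-fold (log2 change 3.94 ± 0.28), and the H-protein CMF098C rose by 1.69 ± 0.16. The L-protein of the complex is a lipoamide dehydrogenase that it shares with other mitochondrial enzymes. Its match CMM299C had 1191, 1925 and 1927 CPM at LC 3 h and 254, 237 and 242 CPM in recovery (log2 change 2.78 ± 0.22, edgeR adjusted p = 0.000316). A second aminomethyltransferase match, CMK259C, had 35.5, 41.6 and 40.4 CPM at LC 3 h and 48.7, 53.8 and 53.4 CPM in recovery, and was the 1 member called lower (log2 change -0.41 ± 0.10, edgeR adjusted p = 0.0196). The serine hydroxymethyltransferases differed in the same way: CMO142C, matched to SHM1, rose by 3.99 ± 0.23, the SHM4 match CMN332C rose by 1.64 ± 0.16, and another SHM4 match, CMI091C, gave -0.13 ± 0.11 with overlapping groups.

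The last steps turn serine into glycerate and phosphoglycerate. The hydroxypyruvate reductase CMS425C had 1468, 2147 and 2143 CPM at LC 3 h and 195, 258 and 260 CPM in recovery, a log2 change of 3.01 ± 0.22. A second, CMQ289C, rose by 1.50 ± 0.10. The glyoxylate reductase CMJ086C had 1441, 1991 and 1945 CPM at LC 3 h and 101, 104 and 105 CPM in recovery, and its log2 change of 4.11 ± 0.18 was among the smallest adjusted p-values (edgeR adjusted p = 7.8e-05). The glycerate kinase match CMK141C, listed as a phosphoribulokinase/uridine kinase relative, had 565, 929 and 924 CPM at LC 3 h and 77.8, 86.8 and 87.6 CPM in recovery (log2 change 3.26 ± 0.22).

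Levels per gene length, as the authors' deposited TPM, put these enzymes among the most abundant transcripts at LC 3 h. CMS429C ranked 2 among all genes there, with 8949 ± 1354 TPM at LC 3 h and 197 ± 28.6 TPM in recovery (SD, n = 3 each), where it ranked 1023. Catalase CMI050C had 3425 ± 558 TPM at LC 3 h and 518 ± 81.9 TPM in recovery, and the P-protein CMR282C 3400 ± 863 TPM at LC 3 h and 246 ± 32.9 TPM in recovery. CMT416C, in spite of its larger change, reached 1971 ± 299 TPM at LC 3 h, against 23.9 ± 2.07 TPM in recovery.

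The genes of carbon fixation itself included both Rubisco subunits among their rises. In red algae both Rubisco subunits are encoded in the plastid genome. The large subunit CMV013C had 339, 515 and 569 CPM at LC 3 h, against 89.9, 97.8 and 86.2 CPM in recovery, a 5.19-fold difference (log2 change 2.38 ± 0.20, edgeR adjusted p = 0.000371). For the small subunit, CMV014C, the values were 103, 123 and 146 CPM at LC 3 h, against 22.4, 21.7 and 19.3 CPM in recovery, a 5.89-fold difference (log2 change 2.56 ± 0.15, edgeR adjusted p = 0.000111). Part of each difference lay between the high-CO2 groups. LC 3 h stood above HC 0 h by 1.26 ± 0.24 for CMV013C and 1.07 ± 0.20 for CMV014C, while recovery stood below HC 0 h, by -1.14 ± 0.24 (edgeR adjusted p = 0.0128) and -1.52 ± 0.21 (edgeR adjusted p = 0.00275). These values come from 1 fit of all 12 libraries and share libraries with each other. As plastid transcripts, both also rest on what was carried over when polyadenylated RNA was selected, and all tested plastid transcripts had a median of 0.65. Of 12 Calvin-Benson cycle genes, 4 were called higher (33.3%) and 0 lower, against 16.2% and 13.8% of all tested genes. With the block they numbered 7 and 0, and the median change was 0.40. The 10 nucleus-encoded members gave 2 higher and 0 lower, with a median of 0.23. These 2 were the fructose-bisphosphate aldolase CMI049C, with 5298, 8454 and 8846 CPM at LC 3 h and 3015, 3759 and 3940 CPM in recovery (log2 change 1.08 ± 0.26), and the phosphoglycerate kinase CMJ305C (log2 change 0.83 ± 0.16). The call of CMI049C was lost on leaving out replicate 2 or replicate 3 of either group.

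Enzymes of the type that C4 plants use to fix carbon first into a C4 acid split in direction. Pyruvate, phosphate dikinase CMF012C, which makes phosphoenolpyruvate, had 714, 1596 and 1544 CPM at LC 3 h, against 60.2, 105 and 102 CPM in recovery, a 14.4-fold rise (log2 change 3.85 ± 0.39, edgeR adjusted p = 0.000856). Phosphoenolpyruvate carboxylase CME095C had 847, 1399 and 1378 CPM at LC 3 h and 414, 435 and 423 CPM in recovery, a 2.85-fold rise. Phosphoenolpyruvate carboxykinase CMN285C rose by 0.82 ± 0.10. The malate dehydrogenase match CMT611C was lower, with 131, 101 and 88.4 CPM at LC 3 h and 214, 149 and 142 CPM in recovery (log2 change -0.66 ± 0.20, edgeR adjusted p = 0.049), a call lost under 8 of the 16 alternatives, 5 of which leave out 1 library. The other malate dehydrogenase, CMP193C, and NADP-malic enzyme CMJ051C gave -0.11 ± 0.10 and 0.06 ± 0.08 with overlapping groups. That made 3 of 6 members higher and 1 lower, with a median of 0.44.

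Photorespiration releases ammonia, which plastids recapture with glutamine synthetase. CMI233C, matched to the plastid form GS2, had 4647, 6230 and 6237 CPM at LC 3 h, against 673, 711 and 731 CPM in recovery, an 8.09-fold rise (log2 change 3.02 ± 0.20, edgeR adjusted p = 0.000179). Its partner in the plastid, ferredoxin-dependent glutamate synthase CMV060C, rose by 0.57 ± 0.12, and the ammonium transporter match CMK126C by 0.69 ± 0.10. As a plastid transcript, CMV060C also rests on what was carried over in the poly(A) selection. Its change lay below the median of 0.65 of all tested plastid transcripts. The call of CMV060C was lost on leaving out either replicate 2 or replicate 3 of LC 3 h. CMI233C, CMV060C and CMK126C were the 3 members of 9 called higher (33.3%), against 16.2% of all tested genes, and the list had a median of 0.25. By edgeR 0 were called lower, where 1 had an unadjusted p under 0.05 and 1 was called by DESeq2. The counts were 4 and 1 with the block, and 5 and 2 without replicate 1. The nitrate genes varied between replicates more than between groups. The nitrate transporter match CMG018C had 816, 477 and 295 CPM at LC 3 h and 813, 293 and 185 CPM in recovery, and nitrate reductase CMG019C had 200, 128 and 82.0 CPM at LC 3 h and 276, 106 and 78.1 CPM in recovery. Replicate 1 was the highest library of its group for both genes in both groups, and neither was called. The second ammonium transporter match CMT526C had 270, 567 and 664 CPM at LC 3 h and 304, 473 and 532 CPM in recovery, with replicate 1 the lowest in both groups. The glutamate dehydrogenase match CML049C and the GATA-type regulator match CME102C were not called, at -0.09 ± 0.10 and 0.25 ± 0.11, though CME102C was with the block (adjusted p = 0.0165). A second glutamate dehydrogenase, CMM119C, had 392, 398 and 406 CPM at LC 3 h and 425, 563 and 580 CPM in recovery (log2 change -0.39 ± 0.14, edgeR adjusted p = 0.0683), and was called lower with the block (adjusted p = 0.0281).

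Amino acid and nucleotide synthesis each held a few large rises. Among 81 amino acid synthesis genes, 80 were tested, 24 were called higher and 12 lower (27 and 17 with the block), with a median of 0.08. The alanine aminotransferase match CMM066C had 502, 962 and 974 CPM at LC 3 h and 185, 274 and 295 CPM in recovery (log2 change 1.69 ± 0.30, edgeR adjusted p = 0.00748). The lysine-pathway enzyme CME179C and chorismate mutase CMQ210C rose by 1.18 ± 0.12 and 1.16 ± 0.15. Among the falls, the cysteine synthase CMT313C fell by 0.86 ± 0.15 on the log2 scale, the methionine synthase CMJ234C by 0.82 ± 0.16, and glutamate decarboxylase CMF072C, which uses up glutamate, by 0.66 ± 0.16. Of 73 nucleotide genes, 11 were called higher (15.1%) and 6 lower (8.2%), no more than the shares of all tested genes (16 and 15 with the block). The adenylate kinase match CMT384C had 1284, 1792 and 1684 CPM at LC 3 h, against 55.4, 42.6 and 36.8 CPM in recovery, a 35.3-fold rise. The purine synthesis enzyme CME023C, matched to PUR7, had 3921, 5055 and 4982 CPM at LC 3 h and 310, 216 and 221 CPM in recovery (log2 change 4.22 ± 0.24), and the carbamoyl phosphate synthetase CMQ255C, which feeds arginine and pyrimidine synthesis, rose by 2.05 ± 0.23. IMP dehydrogenase CML243C, the entry to guanine nucleotides, fell by 0.68 ± 0.12.

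Several of the largest rises fell in no metabolic list. CML339C, matched to YUCCA6, a flavin monooxygenase that makes auxin in Arabidopsis, had 3169, 4356 and 4177 CPM at LC 3 h, against 23.2, 69.4 and 78.7 CPM in recovery, a 68.3-fold difference (log2 change 6.09 ± 0.53, edgeR adjusted p = 0.00044). CMT172C, an AAA-type ATPase with ankyrin repeats, was the most abundant transcript per length at LC 3 h, 11817 ± 2036 TPM, against 479 ± 89.2 TPM in recovery. In CPM it was 25.1-fold higher. CMI002C, matched to a copper amine oxidase, an enzyme class that releases ammonia and hydrogen peroxide from amines, had 258, 415 and 411 CPM at LC 3 h and 15.4, 9.44 and 7.16 CPM in recovery (log2 change 5.09 ± 0.35). Its copy CMT003C, with the same match, had 16.5, 16.8 and 15.3 CPM at LC 3 h and 10.6, 6.30 and 5.42 CPM in recovery (log2 change 1.13 ± 0.26). The haloacid dehalogenase-type hydrolases CMT388C and CMJ188C rose by 4.90 ± 0.15 and 3.67 ± 0.13 and had the tightest groups of this set. The membrane protein CMM067C rose by 4.39 ± 0.21, the ubiquitin-ligase-type match CMF187C by 4.48 ± 0.34, and CMP184C, of the glyoxalase family that clears reactive aldehydes, by 4.09 ± 0.21.

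Genes with no description appeared among the large changes in both directions. They made up 62 of the 280 genes at least 2-fold higher (22.1%) and 27 of the 66 at least 2-fold lower (40.9%), against 1363 of the 4862 tested (28.0%); these shares were not tested. CMP166C, which has no described match, had 1539, 1603 and 1990 CPM at LC 3 h, against 6116, 11753 and 12039 CPM in recovery, the largest fall among genes of at least moderate level (log2 change -2.54 ± 0.32, edgeR adjusted p = 0.00221). CMR182C, CMJ121C and CMP092C fell by 1.69 ± 0.48, 1.70 ± 0.25 and 1.70 ± 0.15 on the log2 scale. In the other direction CMT050C rose by 3.32 ± 0.24, CMH234C by 3.08 ± 0.40, CMH133C by 3.06 ± 0.27 and CMR108C by 2.86 ± 0.20.

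The antenna of photosystem I held large falls. Red algae harvest light with phycobilisomes on photosystem II and with chlorophyll-binding LHC proteins on photosystem I, and the list holds the LHC-type genes only. CMN234C, matched to LHCA2, had 2029, 1423 and 1666 CPM at LC 3 h, against 6416, 9398 and 10809 CPM in recovery, 5.20-fold lower (log2 change -2.38 ± 0.28, edgeR adjusted p = 0.00149). CMQ142C, matched to LHCA4, had 1251, 1141 and 1472 CPM at LC 3 h and 3470, 6404 and 7467 CPM in recovery, and CMN235C, matched to LHCA3, 915, 853 and 936 CPM at LC 3 h and 2127, 3529 and 3637 CPM in recovery, 4.49-fold and 3.44-fold lower. The one-helix protein CMP191C was not called (log2 change -0.08 ± 0.13), so 3 of 4 members were lower. In these antenna genes recovery replicate 1 was the lowest recovery library, still above every LC 3 h library. Per length, CMN234C was the most abundant transcript of all in recovery, 3130 ± 529 TPM at LC 3 h and 16557 ± 3733 TPM in recovery.

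Photosystem and electron transport genes are given here by the genome that encodes them. Of 42 members, 39 passed the filter, and of these 8 were called higher (20.5%) and 7 lower (17.9%), and 13 and 9 with the block. All tested genes gave 16.2% and 13.8%. Of 19 nucleus-encoded members, 3 were higher and 6 lower, with a median of -0.22. Of 20 plastid-encoded members, 5 were higher and 1 lower, with a median of 0.62. That median lay near the 0.65 of all tested plastid transcripts, of which 28.1% were higher. Values of plastid transcripts rest on what was carried over when polyadenylated RNA was selected. This split was made after the values were seen and has no test. Among the nuclear genes, PSBO2-type CMI290C, of the oxygen-evolving complex of photosystem II, had 2197, 2112 and 2486 CPM at LC 3 h and 4449, 7147 and 7680 CPM in recovery (log2 change -1.50 ± 0.26, edgeR adjusted p = 0.0064). The PsbQ match CMC133C of the same complex fell by 1.10 ± 0.21 on the log2 scale and the PGR5-like protein CMT288C, of cyclic electron flow, by 1.15 ± 0.09. A further PGR5-like gene, CMS251C, and the PsbP-domain protein CMT368C were higher, by 1.76 ± 0.11 and 2.36 ± 0.25. In the fit of all 12 libraries, recovery stood above HC 0 h by 0.74 for CMI290C and 0.63 for CMC133C (edgeR adjusted p = 0.0328 and 0.0615). LC 3 h against HC 0 h gave -0.74 for CMI290C and -0.43 for CMC133C, the latter not called (edgeR adjusted p = 0.114). The plastid gene psbA, CMV047C, which encodes the D1 protein of photosystem II, had 165, 109 and 329 CPM at LC 3 h and 37.0, 32.3 and 43.6 CPM in recovery (log2 change 2.41 ± 0.39), and without replicate 1 it was not called (adjusted p = 0.12).

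Tetrapyrrole synthesis, which makes chlorophyll, haem and the bilin pigments of phycobilisomes, had 30 of 31 members tested, with a median of -0.16. Of these, 7 were higher (23.3%) and 8 lower (26.7%), against 16.2% and 13.8% of all tested genes (9 and 14 with the block). The falls included early and late steps. Glutamyl-tRNA reductase CMJ054C, matched to HEMA1, the first committed step, had 659, 667 and 718 CPM at LC 3 h and 1071, 1714 and 1811 CPM in recovery (log2 change -1.17 ± 0.21, edgeR adjusted p = 0.00846). Haem oxygenase CMH209C, the start of bilin synthesis, had 979, 779 and 858 CPM at LC 3 h and 1856, 2423 and 2420 CPM in recovery (log2 change -1.36 ± 0.17), and protochlorophyllide reductase CMG217C, matched to PORA, 455, 500 and 580 CPM at LC 3 h and 1021, 1524 and 1603 CPM in recovery (log2 change -1.43 ± 0.21). In all 3 genes no LC 3 h library reached a recovery library. In the fit of all 12 libraries, recovery stood above HC 0 h by 0.68 for CMJ054C, 0.75 for CMH209C and 0.67 for CMG217C. LC 3 h against HC 0 h gave -0.58 for CMH209C and -0.73 for CMG217C. For CMJ054C it gave -0.46, which was not called (edgeR adjusted p = 0.0719). Ferrochelatase CMS035C, at the branch to haem, rose by 0.66 ± 0.13, the methyltransferase CMI038C of the chlorophyll branch by 0.55 ± 0.10, and the flavodoxin-family gene CMF020C by 1.37 ± 0.15. The called changes of the list ran from -1.43 to 4.12, the largest in a nucleus-encoded member not named here. The Rieske-type protein CMG162C and the peroxisomal-membrane-type protein CMG206C, outside the list, fell by 1.48 ± 0.27 and 1.52 ± 0.22 on the log2 scale, and for both recovery replicate 1 was again the lowest of its group.

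Of 21 glycolysis genes, 4 were called higher (19.0%) and 8 lower (38.1%), against 16.2% and 13.8% of all tested genes (6 and 10 with the block), with a median of -0.17. The pyrophosphate-dependent phosphofructokinase CMH052C had 108, 46.2 and 51.2 CPM at LC 3 h, against 387, 233 and 228 CPM in recovery, 4.12-fold lower (log2 change -2.04 ± 0.38, edgeR adjusted p = 0.00862). Glucose-6-phosphate isomerase CMO124C fell by 1.12 ± 0.15 and the aldolase CME145C by 0.98 ± 0.13 on the log2 scale, the opposite direction to the plastid-type aldolase CMI049C above. The phosphoglycerate mutase family gene CMN311C rose by 2.01 ± 0.27, the aldehyde dehydrogenase CMT034C, matched to the non-phosphorylating glyceraldehyde-3-phosphate type, by 1.89 ± 0.14, and the bifunctional regulator enzyme match CMN085C by 1.03 ± 0.18. All 5 genes matched to L-lactate dehydrogenase, which converts pyruvate and lactate, were called lower, with a median of -1.57. CMI306C had 103, 52.7 and 50.2 CPM at LC 3 h and 238, 189 and 183 CPM in recovery, and CMK006C had 85.6, 42.2 and 36.8 CPM at LC 3 h and 206, 141 and 144 CPM in recovery. CMJ002C had 36.7, 20.5 and 20.7 CPM at LC 3 h and 102, 68.0 and 65.7 CPM in recovery. LC 3 h replicate 1 was the highest LC 3 h library in each, and these copies may share reads. CMA145C fell by 1.41 ± 0.22 and CMC188C by 0.66 ± 0.19 on the log2 scale.

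Starch genes were lower or not called. Of 15 members, 0 were higher by edgeR, by DESeq2 or at an unadjusted p under 0.05. A further 5 were lower (33.3%, against 13.8% of all tested genes, and 7 with the block), with a median of -0.23. Storage glucan is broken down to glucose phosphate by phosphorylases, of which CMD184C had 795, 405 and 400 CPM at LC 3 h and 1427, 1115 and 1101 CPM in recovery (log2 change -1.19 ± 0.30, edgeR adjusted p = 0.0248). The transferase match CMQ030C and the glucan phosphatase match CMT465C fell by 0.59 ± 0.11 and 0.51 ± 0.15. In the tricarboxylic acid cycle list, 20 of 22 members were tested, of which 4 were higher and 4 lower (5 and 8 with the block). Fumarase CMD058C fell by 0.86 ± 0.12 on the log2 scale, the dihydrolipoamide acetyltransferase CMN017C by 0.50 ± 0.10 and isocitrate dehydrogenase CMT216C by 0.37 ± 0.09. The citrate synthase CMA040C and the pyruvate dehydrogenase subunit CMS327C rose by 0.90 ± 0.10 and 0.85 ± 0.13, beside the lipoamide dehydrogenase CMM299C above. CMA040C is matched to CSY3, and its category is gluconeogenesis and the glyoxylate cycle. Mitochondrial electron transport had 52 of 59 members tested, of which 9 were higher (17.3%) and 4 lower (7.7%; 12 and 8 with the block). The called changes ran from -1.10 to 2.81. The largest equals the largest among mitochondrial genome transcripts, which rest on carry-over. The named changes, at an average log2 CPM of at least 4, ran between the complex III subunit CMD048C at 0.63 ± 0.10 and the electron transfer flavoprotein CMS315C at -0.74 ± 0.14. ATP synthase had 18 of 20 members tested, with 3 higher (16.7%) and 1 lower (5.6%), and 5 and 4 with the block. The 7 plastid-encoded members, which also rest on carry-over, gave 2 higher and 0 lower, with a median of 0.86. The 11 nucleus-encoded members gave 1 higher and 1 lower, with a median of -0.23, and 1 and 8 without replicate 1. This split, too, was made after the values were seen. The mitochondrial gamma chain CML029C was the member that fell, by 0.50 ± 0.11.

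**Figure D3:**
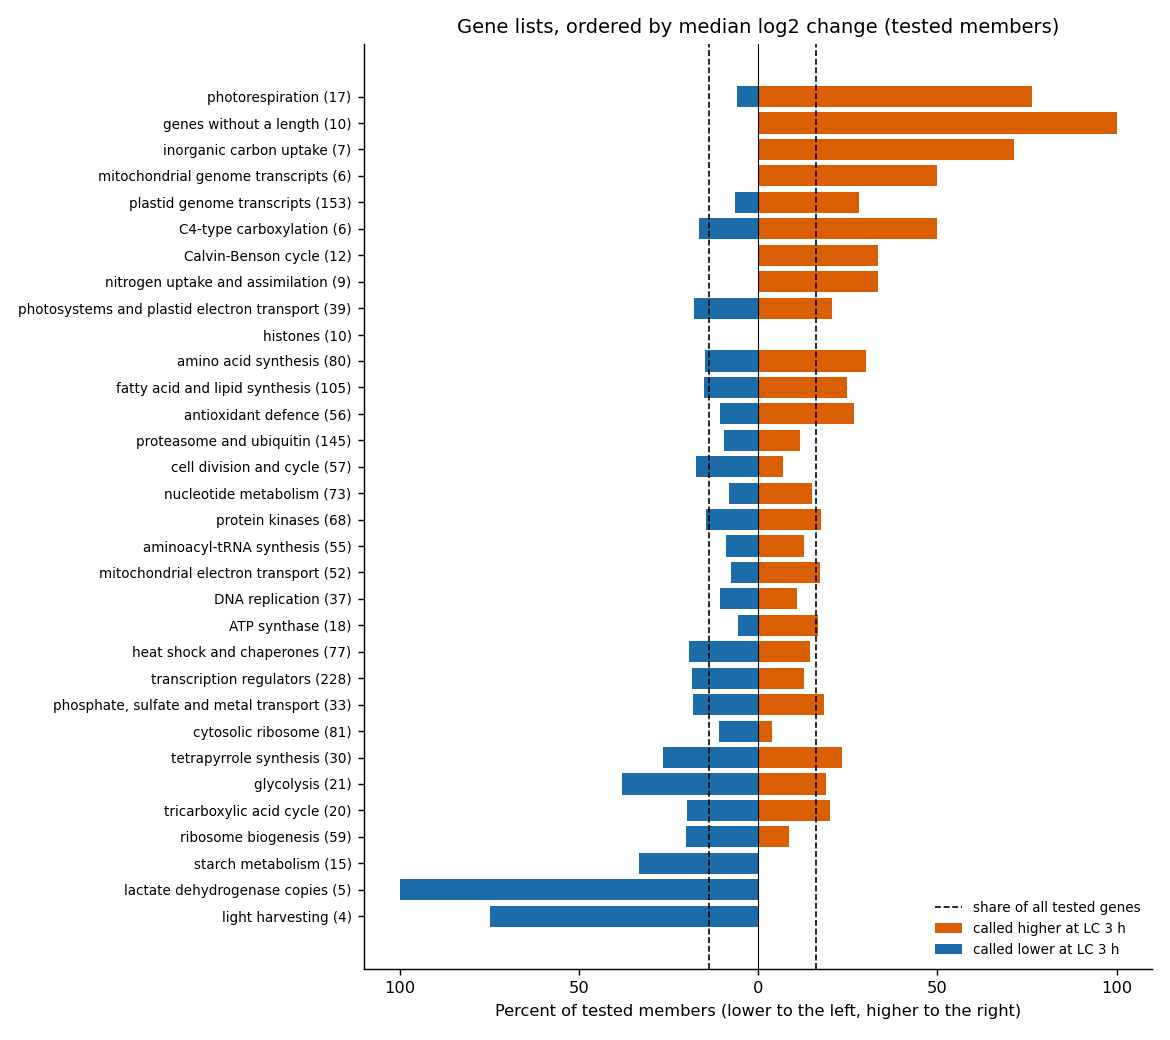
Percent of the tested members of each list called higher (right) or lower (left) at LC 3 h than in HC 24 h recovery, lists ordered by their median log2 change, with the number of tested members in brackets; dashed lines mark the shares of all tested genes, 16.2% higher and 13.8% lower. Photorespiration and carbon uptake extend to the right, lactate dehydrogenase and light harvesting to the left, and most lists stay near the dashed lines.

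Of 83 cytosolic ribosomal protein genes, 81 passed the filter, and of these 3 were called higher (3.7%) and 9 lower (11.1%), with a median of -0.14. The shares of all tested genes were 16.2% and 13.8%. The count of lower members depended on the replicates: it was 23 with the block and 43 without replicate 1, against 24.6% and 31.0% of all tested genes. The falls were small, 1.51-fold at most, as in CML304C, matched to RPL35a, with 136, 98.8 and 100.3 CPM at LC 3 h and 168, 175 and 161 CPM in recovery (log2 change -0.59 ± 0.13), CMP006C at -0.54 ± 0.17 and CMN125C at -0.54 ± 0.16. CMT030C, matched to RPS30, went the other way, with 109, 71.9 and 96.6 CPM at LC 3 h and 45.2, 48.3 and 34.5 CPM in recovery (log2 change 1.12 ± 0.19, edgeR adjusted p = 0.00634), and the P0-related CMB048C rose by 0.29 ± 0.09. Ribosome biogenesis had 5 of 59 higher (8.5%) and 12 lower (20.3%), and 5 and 19 with the block. The falls included CMN108C at -0.88 ± 0.26 and CMM044C, matched to the pseudouridine synthase NAP57, at -0.86 ± 0.21. Aminoacyl-tRNA synthesis had 7 of 55 higher (12.7%) and 5 lower (9.1%), and 15 and 14 with the block. They ran from CML065C at 1.31 ± 0.09 and CMJ098C, a prolyl-tRNA synthetase match, at 1.16 ± 0.11 to CMQ336C at -0.67 ± 0.07. Of 77 chaperone genes 11 were higher (14.3%) and 15 lower (19.5%), and 19 and 26 with the block. The HSP90-type CMQ224C had 1830, 1284 and 1255 CPM at LC 3 h and 3331, 2524 and 2433 CPM in recovery (log2 change -0.92 ± 0.22), and the chaperonin CME197C fell by 1.00 ± 0.09. Proteasome and ubiquitin genes numbered 17 higher (11.7%) and 14 lower (9.7%) of 145, and 30 and 35 with the block. Among them were the proteasome maturation factor CMI087C at 1.55 ± 0.11, CMN252C, a weak match to a 26S subunit (E-value 0.011), at -0.87 ± 0.17 and the ubiquitin-conjugating enzyme CMG003C, matched to peroxin PEX4, at -1.90 ± 0.43.

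DNA replication had 4 of 37 members higher and 4 lower (7 and 8 with the block), 10.8% in each direction against 16.2% and 13.8% of all tested genes. The origin recognition subunit CMS058C rose by 1.38 ± 0.09 and replication factor C CMF110C by 0.63 ± 0.11, while the repair polymerase CMQ426C fell by 1.26 ± 0.09 and CDC45, CMP303C, by 0.60 ± 0.09 on the log2 scale. A DNA polymerase match to damaged-DNA binding, CMT193C, rose by 1.82 ± 0.09. In cell division and cycle, 4 of 57 were higher (7.0%) and 10 lower (17.5%; 11 and 15 with the block), with the cyclin match CMI227C at 0.53 ± 0.13, the anaphase-promoting complex activator match CMQ242C at -0.84 ± 0.25 and its subunit APC10, CMP321C, at -0.66 ± 0.16. Of 10 histone genes 0 were called by edgeR and 0 by DESeq2, and 0 had an unadjusted p under 0.05 (4 higher and 0 lower with the block, 7 and 1 without replicate 1), with a median of 0.19.

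Of 232 regulators of transcription 228 were tested, and 29 were called higher (12.7%) and 42 lower (18.4%), near the 16.2% and 13.8% of all tested genes (43 and 78 with the block). Their median was -0.09, against -0.04 for all genes. CMH127C, a weak match to a B-box zinc finger (E-value 0.02), had 46.1, 69.0 and 62.8 CPM at LC 3 h and 217, 180 and 174 CPM in recovery (log2 change -1.68 ± 0.17, edgeR adjusted p = 0.000784). The CONSTANS-related zinc finger CMR409C had 74.0, 94.4 and 96.0 CPM at LC 3 h and 194, 235 and 237 CPM in recovery (log2 change -1.33 ± 0.13), and the myb factor CMR337C 429, 601 and 633 CPM at LC 3 h and 972, 1462 and 1557 CPM in recovery (log2 change -1.26 ± 0.23). In plants, relatives of these families take part in light and circadian control. Among the rises were matches to plastid gene expression: CML047C, matched to the plastid RNA-binding protein CSP41A, had 1194, 2010 and 1982 CPM at LC 3 h and 115, 178 and 178 CPM in recovery (log2 change 3.46 ± 0.29), and CML043C, matched to PTAC2 of the plastid transcription complex, 378, 483 and 478 CPM at LC 3 h and 91.6, 95.4 and 98.4 CPM in recovery (log2 change 2.23 ± 0.12). The MYND zinc finger CMC016C rose by 2.59 ± 0.21. Protein kinases numbered 12 higher (17.6%) and 10 lower (14.7%) of 68, near the shares of all tested genes (20 and 24 with the block). They included matches to the thylakoid kinases of Arabidopsis in opposite directions, STN8-type CMS146C, which there phosphorylates photosystem II, at 1.44 ± 0.10, and STN7-type CMS463C, which there phosphorylates the antenna, with 26.0, 27.3 and 29.3 CPM at LC 3 h and 53.9, 60.1 and 58.3 CPM in recovery (log2 change -1.06 ± 0.09, edgeR adjusted p = 0.000399).

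Of 105 lipid genes, 26 were called higher (24.8%) and 16 lower (15.2%), against 16.2% and 13.8% of all tested genes, with a median of 0.01. With the block they numbered 32 and 28 (22.7% and 24.6% of all tested genes). Acetyl-CoA carboxylase CMM188C, the first step of fatty acid synthesis, had 788, 1765 and 1661 CPM at LC 3 h and 226, 277 and 274 CPM in recovery (log2 change 2.44 ± 0.31, edgeR adjusted p = 0.00235). Acetyl-CoA synthetase CMK098C rose by 1.69 ± 0.27 and the sphingolipid enzyme CMO139C by 1.34 ± 0.20, while the acyl-CoA-binding protein CMP278C fell by 1.28 ± 0.32. Antioxidant genes numbered 15 higher (26.8%) and 6 lower (10.7%) of 56 (18 and 13 with the block). Peroxiredoxin Q CMS311C had 1513, 1767 and 1882 CPM at LC 3 h and 402, 491 and 568 CPM in recovery (log2 change 1.82 ± 0.18), and the thioredoxin match CMT037C and the monodehydroascorbate reductase CMT414C rose by 1.29 ± 0.08 and 1.35 ± 0.12. Manganese superoxide dismutase CMT028C fell by 1.17 ± 0.21 and the peroxiredoxins CMC039C and CMN109C by 0.99 ± 0.14 and 0.96 ± 0.16. Phosphate, sulfate and metal genes numbered 6 higher and 6 lower of 33 (18.2% in each direction, and 7 and 11 members with the block). Genes matched to the same Arabidopsis carrier, PHT6, went in opposite directions: CMT284C had 70.4, 155 and 157 CPM at LC 3 h and 25.0, 28.9 and 27.5 CPM in recovery (log2 change 2.24 ± 0.30), and CMN019C 295, 433 and 484 CPM at LC 3 h and 983, 1216 and 1255 CPM in recovery (log2 change -1.51 ± 0.21). The metal carrier CMJ138C, of the NRAMP family, fell by 1.02 ± 0.22.

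Transcripts of the plastid genome that were called were higher more often than lower, but most were not called. Of 177 plastid genes, 153 passed the filter, and of these 43 were called higher (28.1%) and 10 lower (6.5%), against 16.2% and 13.8% of all tested genes (59 and 12 with the block), with a median of 0.65, and 100 were not called. The 31 tested plastid ribosomal protein genes gave 10 higher and 0 lower, with a median of 1.09. The falls reached -1.18 on the log2 scale, and among those at an average log2 CPM of at least 4 was ycf10, CMV237C, with 18.6, 16.7 and 16.8 CPM at LC 3 h and 28.4, 38.4 and 33.1 CPM in recovery (log2 change -0.94 ± 0.14), and psaL, CMV236C, of photosystem I, fell by 0.59 ± 0.15. Only 6 of 29 mitochondrial genes passed the filter, of which 3 were higher. The kit selects polyadenylated RNA, which most organelle transcripts are not, so these values rest on what was carried over. Of the 14 genes without a length 10 were tested, and these were all called higher, with a median of 2.55. EPlCMEG00000000001, the most abundant, had 8767, 4777 and 23082 CPM at LC 3 h and 1390, 1374 and 2383 CPM in recovery, so LC 3 h replicate 3 was the highest library and LC 3 h replicate 2 the lowest of its group. psbA, above, had the same order of LC 3 h libraries. Without replicate 1 of both groups, 2 of these 10 genes were called, while the plastid counts were 51 higher and 20 lower. The part of this carry-over in the plastid results was not tested.

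The choice of high-CO2 group changed some results and not others. In 1 fit of all 12 libraries, recovery differed from HC 0 h in 352 higher genes (7.24%) and 332 lower genes (6.82%), and LC 3 h from HC 0 h in 1076 higher genes (22.1%) and 939 lower genes (19.3%). These comparisons share libraries with the main one, so the values are set side by side only. List counts against HC 0 h below are to be read beside these shares. Of the 790 genes higher at LC 3 h than in recovery, 655 were also called higher than at HC 0 h, 1 was called lower and 134 were not called. Of the 670 lower genes, 433 were also called lower than at HC 0 h, 5 were called higher and 232 were not called.

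**Figure D4:**
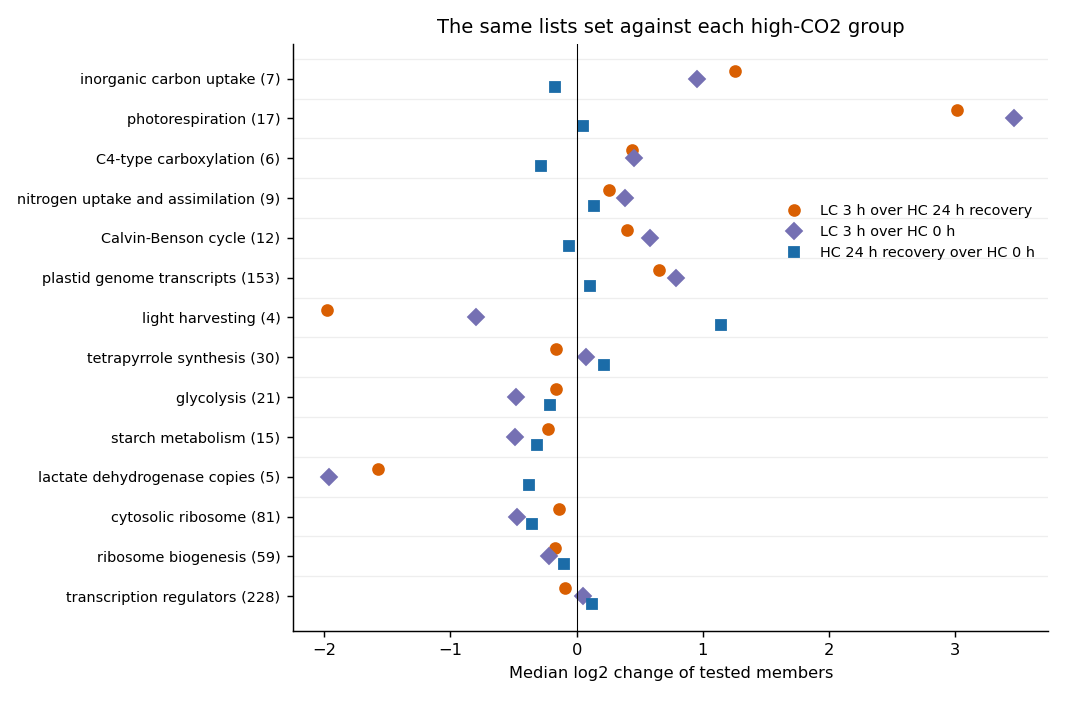
Median log2 change of the tested members of 14 lists in 3 comparisons, LC 3 h over HC 24 h recovery (circles), LC 3 h over HC 0 h (diamonds) and HC 24 h recovery over HC 0 h (squares); the comparisons share libraries. Light harvesting lies at -1.97, -0.80 and 1.14 in this order, and the cytosolic ribosome at -0.14, -0.47 and -0.36.

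For the antenna, recovered cultures stood above the starting ones. Light harvesting had a median of -1.97 against recovery and -0.80 against HC 0 h, and 3 of its 4 members were higher in recovery than at HC 0 h. CMN234C and CMQ142C stood 1.48 ± 0.19 and 1.37 ± 0.25 above HC 0 h in recovery (edgeR adjusted p = 0.00253 and 0.00794), and the undescribed CMP166C 1.61 ± 0.24. The regulators CMH127C, CMR409C and CMR337C stood 0.96, 0.90 and 1.04 above HC 0 h, so CMR337C, at -1.26 against recovery, was -0.19 against HC 0 h (adjusted p = 0.459) and not called there. Over the regulator list, of which 228 members were tested in the main comparison, 31 were higher and 7 lower in recovery than at HC 0 h. All tested genes gave 7.24% and 6.82% there. At LC 3 h, 53 were higher and 30 lower than at HC 0 h, against 22.1% and 19.3% of all tested genes. CML339C kept a raised level in recovery, 2.38 ± 0.39 above HC 0 h (edgeR adjusted p = 0.00517), so its log2 change was 6.09 against recovery and 8.50 against HC 0 h. The phosphatase match CMN326C stood 1.29 above HC 0 h in recovery, and its changes at LC 3 h were 1.45 ± 0.29 and 2.77. The plastid secA gene CMV071C was lower at LC 3 h than in recovery, by -0.77 ± 0.17, and 0.68 above HC 0 h (adjusted p = 0.156), where it was not called.

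Other groups were low in recovery as well as at LC 3 h. The cytosolic ribosome had 0 members higher and 58 lower at LC 3 h than at HC 0 h, with a median of -0.47, and in recovery 34 of 81 were still lower than at HC 0 h, with a median of -0.36. The RPS30 match CMT030C differed from this: it stood 1.24 below HC 0 h in recovery (log2 change -1.24, adjusted p = 0.00236), and LC 3 h differed from HC 0 h by -0.10. The oxidoreductase CMR398C was called higher at LC 3 h than in recovery, by 0.47 ± 0.09, and lower than at HC 0 h, by -0.64, and its recovery level stood at -1.13 against HC 0 h. Glycolysis had 4 members higher and 12 lower against HC 0 h, with 6 lower in recovery, and starch metabolism 0 higher and 9 lower, also with 6 lower in recovery. Photorespiration had 13 members higher in either comparison, with medians of 3.01 against recovery and 3.46 against HC 0 h, and a median of 0.05 in recovery against HC 0 h. CMT416C gave 6.39 against recovery and 6.22 against HC 0 h.

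**Figure D5:**
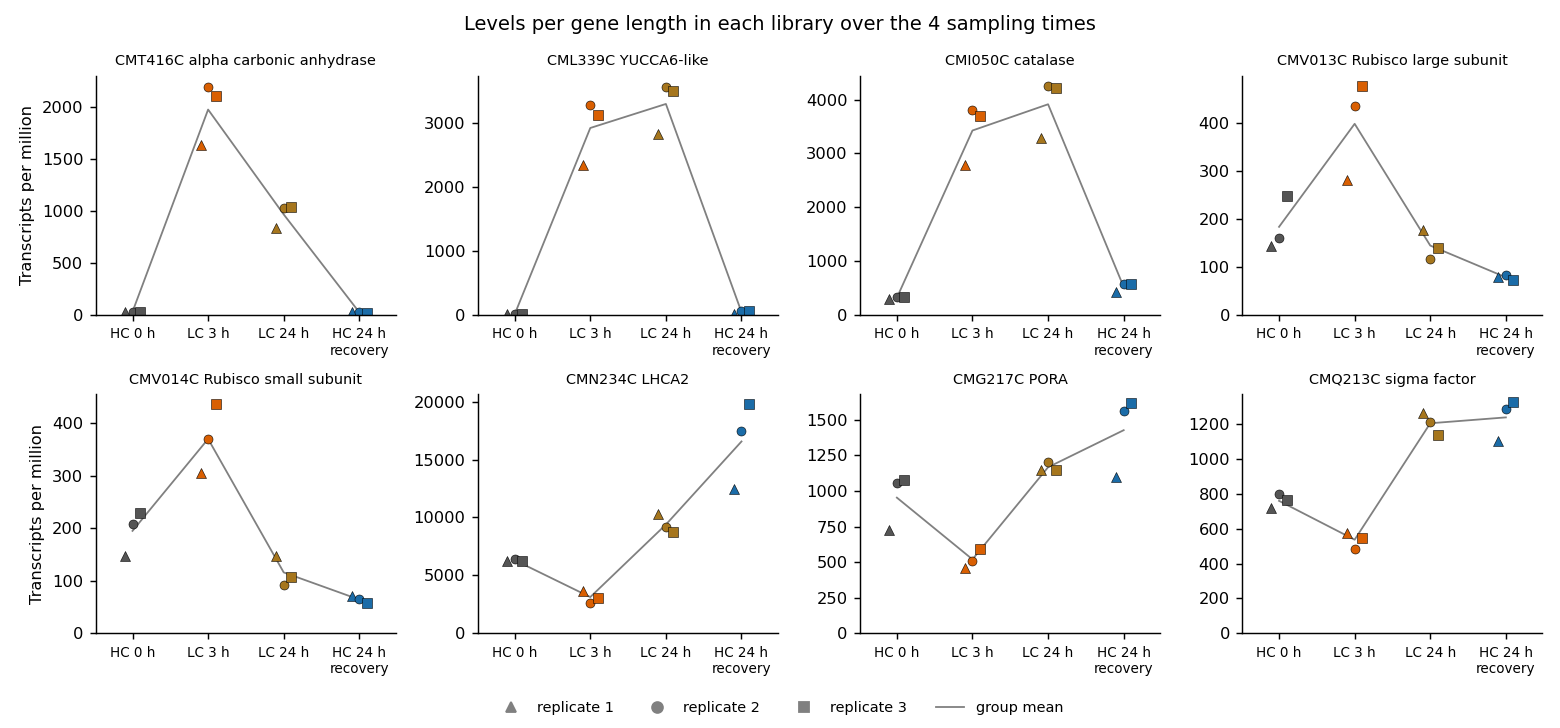
TPM in each library, by the authors' deposited values, of 8 genes over the 4 sampling times in time order (x axis); triangles, circles and squares are replicates 1, 2 and 3, and lines join group means. CMT416C lay near its HC 0 h level in recovery, the Rubisco genes lay below theirs, and CMN234C, CMG217C and the sigma factor CMQ213C were lowest at LC 3 h and highest on average in recovery.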

How the data were processed

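RNA of 3 biological replicates per group was sequenced after poly(A) selection by an unstranded kit, so overlapping and antisense genes cannot be told apart, per the labels' protocols. CASAVA 1.8, Bowtie2, RSEM and edgeR are named in the submitters' processing notes without their roles, and no source used here names a genome build or annotation. Per the file headers, the deposited table holds expected counts (94% of cells whole), TPM per library, and the authors' log2 fold changes and q-values against HC 0 h, which were not used. Gene lengths, deposited by the authors, are lacking for 14 genes. Of 4970 identifiers, 4738 were found in RefSeq (ASM9120v1), used for names and neighbours only.

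Here counts were rounded and tested with edgeR 4.0.16 (limma 3.58.1, R 4.3.3): TMM scaling, default filter (4862 genes kept, 108 removed), robust quasi-likelihood fit of the 6 libraries, Benjamini-Hochberg adjustment. Scripts were tested on simulated data. HC 0 h values come from the same test over 12 libraries. P-values measure the spread between these cultures. No 2 replicates agreed within sampling noise: chi-square per gene was 17.5 to 193.6.

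Replicate numbers come from the sample titles. Deviations of same-numbered libraries from their group means correlated at 0.504, 0.305 and 0.39. Replicate 3 of LC 3 h correlated with replicate 2 of recovery at 0.325, and replicate 2 of LC 3 h with replicate 3 of recovery at 0.223. Replicate 1 thus deviated alike in both groups, and these values do not show that replicates 2 and 3 pair by number. Deviations from the mean of 3 libraries also depend on each other, so 1 odd replicate shapes all these values. The block was therefore kept as an alternative to the main test.

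Lists are word patterns on the table's descriptions and categories. Members, lists and alternatives were chosen with earlier results of these data known. Planned lists of structural RNA and autophagy had no members, and the lists for DNA replication, cell division, amino acid synthesis and nucleotides were written after the table was read. No list has a test of its own. Genes are named by a rule: the 15 largest described rises and falls with an average log2 CPM of at least 4 and groups that do not overlap, 4 of each without a description, all members of the carbon uptake, photorespiration, C4 and nitrogen lists, up to 3 in each direction of the others, the 5 highest and lowest in recovery against HC 0 h, both Rubisco genes and the 4 smallest adjusted p-values. Of the 191 genes this gave, 178 were called. CMC188C, CMT003C, CMJ305C and the genes of the closing section beyond these were named after their values were seen. The 15 alternatives chosen at the outset were other scalings and filters, DESeq2 1.42.0, the 12-library fit, the replicate block, equal depth, removal of genes without a length, and leaving out each library; leaving out replicate 1 of both groups was added after seeing the data.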

Additional observations from a re-analysis of the deposited data

How the results depend on the processing

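No call turned round under any of the 16 alternatives, and 125 of the 178 named genes that were called kept their call under every one. With the replicate number as a block, which treats same-numbered cultures as if paired, 1105 genes were higher and 1198 lower. Photorespiration had 2 members lower, nitrogen assimilation 1 lower, and the cytosolic ribosome 5 higher and 23 lower. It changed the side of the threshold of 3 named genes, CMR117C, CME102C and CMM119C, all of them gained. Without replicate 1 of both groups, chosen after seeing the data, 1537 genes were higher and 1508 lower. Photorespiration then had 2 lower, nitrogen assimilation 5 higher and 2 lower, the cytosolic ribosome 6 higher and 43 lower, and the plastid genome 20 lower. The photorespiration count was also 2 lower under upper-quartile scaling, no low-count filter, DESeq2, all 12 libraries in 1 fit and equal depth. The C4-type list had 0 lower under relative-log-expression scaling, under a filter of 10 CPM in 3 libraries, and without the genes lacking a length. Nitrogen assimilation had 1 lower under upper-quartile scaling, DESeq2 and the 12-library fit. The cytosolic ribosome had 14 lower under upper-quartile scaling and 16 lower under both DESeq2 and the 12-library fit. The plastid genome had 22 higher under the 10 CPM filter, 65 higher under DESeq2 and 6 lower in the 12-library fit. The 10 CPM filter tests fewer genes; otherwise the cause was not tested.

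Leaving out 1 library at a time gave 438 to 1075 genes higher and 224 to 897 lower, and 234 to 317 and 49 to 84 at 2-fold or more. Photorespiration kept 13 higher, with 0 to 2 lower, and carbon uptake 5 higher and 0 lower. The C4-type list had 3 higher and 0 to 1 lower, nitrogen assimilation 2 to 4 higher and 0 to 1 lower, and glycolysis 4 to 6 higher and 3 to 8 lower. The cytosolic ribosome ranged over 1 to 3 higher and 0 to 30 lower, and the plastid genome over 19 to 53 higher and 2 to 13 lower. Counts of genes were lowest without recovery replicate 2 and highest without LC 3 h replicate 1. With 3 cultures a group, small changes in ribosomal and weakly expressed plastid genes lie near what this design can call.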

Other observations

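The genes below were picked after their values were seen and are given as values, with no test of a group. Plastid sigma factors are nucleus-encoded proteins that direct the plastid RNA polymerase to its promoters. Of 4 such genes, all with the same best match, 3 were higher at LC 3 h than in recovery and 1 was lower. CMR165C had 1853, 2234 and 2169 CPM at LC 3 h, against 524, 441 and 443 CPM in recovery (log2 change 2.15 ± 0.15, edgeR adjusted p = 0.00023). CMM072C and CMK044C rose by 1.10 ± 0.14 and 0.47 ± 0.14. CMQ213C had 654, 541 and 613 CPM at LC 3 h, against 1170, 1426 and 1497 CPM in recovery (log2 change -1.18 ± 0.15, edgeR adjusted p = 0.00213). In both genes the groups lay well apart, in opposite directions.

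Folate-bound one-carbon units link glycine and serine to other synthesis. The one-carbon category of the table had 16 tested genes, 7 of them called higher and 2 lower, against 16.2% and 13.8% of all tested genes. Its median log2 change was 0.26, and it includes glycine decarboxylase and serine hydroxymethyltransferase genes already described. Formyltetrahydrofolate synthetase CMJ099C had 1009, 1556 and 1540 CPM at LC 3 h, against 81.1, 113 and 123 CPM in recovery (log2 change 3.69 ± 0.25, edgeR adjusted p = 0.000224). The S-formylglutathione hydrolase CMQ397C, which takes part in formaldehyde removal, rose by 1.52 ± 0.19. Methylenetetrahydrofolate reductase CMT610C, which feeds methionine synthesis, was lower, at -0.69 ± 0.10 (edgeR adjusted p = 0.00308).

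Peroxins build the peroxisome and import its enzymes. Of 14 peroxin and peroxisomal membrane genes, 4 were higher, 3 lower and the other 7 not called, against 16.2% higher and 13.8% lower of all tested genes. Copies of the import receptor PEX5 differed: CMK124C had 287, 482 and 464 CPM at LC 3 h and 93.0, 98.4 and 91.7 CPM in recovery (log2 change 2.12 ± 0.20), while CML093C had 337, 370 and 355 CPM at LC 3 h and 399, 465 and 468 CPM in recovery (log2 change -0.33 ± 0.10, edgeR adjusted p = 0.0485). PEX6, CML252C, an ATPase that recycles the receptor, rose by 2.26 ± 0.40.

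Some large rises were neighbours in RefSeq gene order. Of the 233 genes at least 2-fold higher that could be placed, 47 (20.2%) stood next to another, against 402 of 4449 other tested genes (9.0%) that stood next to such a gene. Pairs included CMT416C with the aspartate kinase match CMT418C (6.39 and 2.39), the aldolase CMI049C with catalase CMI050C (1.08 and 2.75), and a copper amine oxidase with an anion exchanger at both CMI002C with CMI004C and CMT003C with CMT006C. Strand was not kept, so reads running over from a neighbour cannot be told apart.

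The ketoacyl reductase match CML083C, of fatty acid synthesis, was listed at 0, 0.0868 and 0 CPM at LC 3 h, against 3.70, 27.3 and 35.1 CPM in recovery (edgeR adjusted p = 0.00679). Its TPM was 7.86, 21.0 and 22.0 at HC 0 h and 0.159, 25.5 and 15.8 at LC 24 h.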
